A study of Mus musculus with 1989 samples.

Results

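The genes described here are Tcf7, Lef1, Bcl11b, Satb1 and Myb, transcription and chromatin factors of the T lineage. They were chosen by name, with earlier results of these data known, and are 5 of the 8846 genes in the single-cell RNA table of mouse thymus. In the single-cell chromatin accessibility table, the peaks within the gene body or 100 kb to either side of it were taken, which gave 166 peaks of the 62552 peaks that do not overlap one another, out of 138317 in all. All 5 genes had values in both tables.

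The study profiled thymocytes of C57BL/6 mice, with the samples labelled as thymus of males aged 7 weeks and with no treatment or altered allele in any group. One scRNA-seq library gave 1993 cells. In scATAC-seq, single cells had been sorted as DN (CD4/CD8 double negative, 182 cells), DP (double positive, 125 cells), CD4 (119 cells) and CD8 (116 cells), and 1084 cells labelled Total came from unsorted thymus in 36 numbered sets. The sources used here do not say how many animals the cells came from, and each library or sort counts as 1 sample, so no test between groups was possible and every interval covers counting error only.

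Tcf7 encodes TCF1 and Lef1 encodes LEF1, related HMG-box factors that bind the same DNA motif, recruit beta-catenin or Groucho/TLE corepressors, and act from the first commitment of a progenitor to the T lineage up to the choice between CD4 and CD8. Bcl11b encodes a zinc-finger factor that works with the NuRD chromatin complex and is known for closing off other lineages as DN cells commit. Satb1 encodes an organizer of chromatin loops needed for thymocyte maturation, and Myb encodes a DNA-binding activator that immature thymocytes need for survival and proliferation.

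On GRCm38 the genes lie at chr11:52252371-52283014 (Tcf7, minus strand), chr3:131110471-131224356 (Lef1, plus strand), chr12:107910403-108003602 (Bcl11b, minus strand), chr17:51736187-51833290 (Satb1, minus strand) and chr10:21124935-21160984 (Myb, minus strand). The sequences below are printed for reference, and no accessibility result was computed from them. For each locus the middle 300 bases are given, plus strand, of the 4 kb peak with the lowest ratio of SP (CD4 and CD8 cells together) to DP signal, together with the promoters of Bcl11b and Myb, from 250 bases before to 50 bases after the RefSeq start on GRCm38.p6, minus strand. Capitals mark the letters of a searched motif on either strand. The motifs were TCF/LEF (the word CTTTGAA or the word CTTTGAT), RUNX (the word TGTGGT), MYB (the word CAACTG, the word CAACGG, the word TAACTG or the word TAACGG), ETS (the word CCGGAAGT), GATA (the word AGATAA) and E-box (the word CAGCTG or the word CAGGTG), and none of these overlaps another in the sequences printed.
Tcf7 peak at +7.43 kb, chr11:52275433-52275732: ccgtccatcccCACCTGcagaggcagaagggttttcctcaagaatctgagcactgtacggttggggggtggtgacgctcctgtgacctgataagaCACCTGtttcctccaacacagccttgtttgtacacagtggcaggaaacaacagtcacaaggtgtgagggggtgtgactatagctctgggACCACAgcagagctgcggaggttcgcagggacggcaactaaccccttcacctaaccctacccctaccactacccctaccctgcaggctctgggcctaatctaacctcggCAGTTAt
Lef1 peak at -84 kb, chr3:131026360-131026659: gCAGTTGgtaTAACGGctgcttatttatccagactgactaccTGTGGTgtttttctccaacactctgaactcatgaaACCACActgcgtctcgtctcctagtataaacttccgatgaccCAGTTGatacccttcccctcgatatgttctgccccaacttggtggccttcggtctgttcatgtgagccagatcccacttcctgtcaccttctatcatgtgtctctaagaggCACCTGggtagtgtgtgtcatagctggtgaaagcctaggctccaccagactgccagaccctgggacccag
Bcl11b peak at +38.7 kb, chr12:107964768-107965067: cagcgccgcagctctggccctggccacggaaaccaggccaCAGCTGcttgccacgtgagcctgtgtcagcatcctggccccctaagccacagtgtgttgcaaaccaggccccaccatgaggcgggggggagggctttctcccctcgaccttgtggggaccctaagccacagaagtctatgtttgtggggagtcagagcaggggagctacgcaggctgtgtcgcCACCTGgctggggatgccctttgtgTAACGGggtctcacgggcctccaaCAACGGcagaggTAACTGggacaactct
Satb1 peak at +19.6 kb, chr17:51813554-51813853: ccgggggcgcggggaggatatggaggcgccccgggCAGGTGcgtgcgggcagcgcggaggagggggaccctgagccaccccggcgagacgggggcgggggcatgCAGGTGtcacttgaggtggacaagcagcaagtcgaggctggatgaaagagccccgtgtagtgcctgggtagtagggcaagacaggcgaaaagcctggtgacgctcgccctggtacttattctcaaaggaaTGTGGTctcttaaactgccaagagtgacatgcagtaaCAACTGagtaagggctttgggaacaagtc
Myb peak at +68.2 kb, chr10:21092601-21092900: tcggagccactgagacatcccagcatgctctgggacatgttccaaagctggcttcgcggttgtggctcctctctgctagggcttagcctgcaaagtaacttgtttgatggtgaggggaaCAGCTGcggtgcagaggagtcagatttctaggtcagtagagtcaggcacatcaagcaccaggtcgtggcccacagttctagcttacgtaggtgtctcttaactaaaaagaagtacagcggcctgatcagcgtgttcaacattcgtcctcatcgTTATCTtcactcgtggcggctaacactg
Bcl11b promoter, chr12:108003365-108003664: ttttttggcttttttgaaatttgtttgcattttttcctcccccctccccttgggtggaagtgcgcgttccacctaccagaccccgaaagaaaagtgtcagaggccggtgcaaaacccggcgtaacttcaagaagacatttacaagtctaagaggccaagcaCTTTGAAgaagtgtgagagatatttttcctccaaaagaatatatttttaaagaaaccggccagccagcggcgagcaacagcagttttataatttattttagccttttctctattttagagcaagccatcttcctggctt
Myb promoter, chr10:21160935-21161234: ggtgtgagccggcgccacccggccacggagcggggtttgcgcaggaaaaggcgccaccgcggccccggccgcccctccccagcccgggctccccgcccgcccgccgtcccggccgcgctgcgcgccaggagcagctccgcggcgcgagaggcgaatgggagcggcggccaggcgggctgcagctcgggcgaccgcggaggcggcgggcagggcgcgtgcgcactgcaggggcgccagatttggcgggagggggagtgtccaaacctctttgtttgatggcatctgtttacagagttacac

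Among the 5 promoters searched (1 transcript start for each gene), only that of Bcl11b held a TCF/LEF word, CTTTGAA at position -89 from the start. The same words were found in 8.65% of all 32851 promoters in the RefSeq table. The Myb promoter held none of the searched motifs, and those of Tcf7, Lef1 and Satb1 held 1 E-box word each. In the peak centres above, RUNX words were found at the Tcf7, Lef1 and Satb1 loci, MYB words at the Tcf7, Lef1, Bcl11b and Satb1 loci, E-box words at all 5, and the single GATA word at the Myb locus. Over the 166 peak centres of the loci, TCF/LEF words were found in 11.4%, RUNX words in 27.7%, MYB words in 24.1%, GATA words in 10.2%, ETS words in 1.20% and E-box words in 44.6%. Over all 62552 peak centres the shares were 12.3%, 29.4%, 28.9%, 12.0%, 2.20% and 42.7% in the same order, so the letters were about as frequent at these loci as elsewhere. A word match is a description of the letters and not a measured binding site.

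For the RNA, cells were grouped again from the deposited values with the 5 genes left out of the clustering, which gave 16 clusters. From markers of each stage these were called DN-like (78 cells), ISP-like (immature single positive, 190), DPbla-like (blast, 348), DPre-like (rearrangement, 377), DPsel-like (selection, 341), CD4sp-like (236), CD8sp-like (120), NCL-like (nonconventional lymphocytes, 31) and APC-like (antigen-presenting cells, 35), and 2 clusters of 120 and 117 cells stayed unnamed. Gzma, a listed DN marker, led the ISP-like cluster, and the cells of the unnamed clusters scored between DPre and DPbla. Because the deposited values are log2 quantile-normalized, a stand-in for molecule counts was used. A value became a number of steps, its place when the different values found in that cell are put in order, and every cell was thinned to 1300 steps. Steps of different genes are not compared with one another.

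Each of the 5 genes followed its own course through the classes. Tcf7 was highest in DPre-like cells, Lef1 in DPsel-like cells, Satb1 in DPsel-like cells with DPre-like cells next, Bcl11b in DPre-like and DN-like cells, and Myb in DN-like cells.

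Tcf7, the TCF1 gene, stood at 0.987 steps per cell in DN-like cells, 1.75 in ISP-like cells and, among DP cells, 1.58 (DPbla-like), 2.47 (DPre-like) and 1.83 (DPsel-like). Its SP levels were 1.08 (CD4sp-like) and 0.95 (CD8sp-like). The DPre-like level (95% interval 2.31 to 2.63) stood above those of all other named classes, and the next 3 in order, DPsel-like, ISP-like and DPbla-like, differed from their neighbours by no more than the counting error. CD4sp-like, DN-like and CD8sp-like cells shared the lowest level in the same sense. Tcf7 was found in 91.2% of thinned DPre-like cells and in 61.5% of DN-like cells, against 96.6% and 93.6% without thinning.

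After thinning, Lef1 separated the early from the late classes. DN-like cells held 0.205 steps per cell, ISP-like cells 0.411, DPbla-like cells 0.207 and DPre-like cells 0.355. DPsel-like cells held 1.35, CD4sp-like cells 1.09 and CD8sp-like cells 0.867. All 3 later classes lay above all 4 earlier ones with no overlap of their intervals, and 62.5% of thinned DPsel-like cells held Lef1 against 29.2% of DPre-like cells. Without thinning these shares were 74.2% and 40.8%. The ISP-like share was then higher, at 80.5%, in cells with a median of 9406.5 steps.

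Bcl11b stood at 2.04 steps per cell in DN-like and 0.726 in ISP-like cells. DPbla-like cells held 1.24, DPre-like cells 2.05 and DPsel-like cells 1.35, and the SP levels were 1.12 (CD4sp-like) and 0.975 (CD8sp-like). The course thus had a high level at each end of the proliferating classes and its lowest value in ISP-like cells. DN-like and DPre-like cells did not differ beyond counting error, and neither did neighbours among DPsel-like, DPbla-like, CD4sp-like and CD8sp-like cells.

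Satb1 stood at 1.15 steps per cell in DN-like and 1.38 in ISP-like cells. DPbla-like cells held 2.60, DPre-like cells 4.14 and DPsel-like cells 4.83, and the SP levels were 2.15 (CD4sp-like) and 1.95 (CD8sp-like). Its level went up through every class to DPsel-like, with the DN-like and ISP-like neighbours not separated by counting error, and was lower again in both SP classes. After thinning it was still found in 97.9% of DPre-like and 95.3% of DPsel-like cells, and in 99.2% and 98.2% before it.

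Myb stood at 0.897 steps per cell in DN-like and 0.347 in ISP-like cells. DPbla-like cells held 0.391, DPre-like cells 0.666 and DPsel-like cells 0.352, and the SP levels were 0.148 (CD4sp-like) and 0.142 (CD8sp-like). The DN-like and DPre-like levels were the highest, as for Bcl11b. Myb was found in 60.3% of thinned DN-like cells, 46.2% of DPre-like cells and 11.7% of CD8sp-like cells, and in 83.3%, 59.9% and 19.2% without thinning. The deeper ISP-like cells gave 86.8% without thinning, above the DN-like share.

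**Figure D1:**
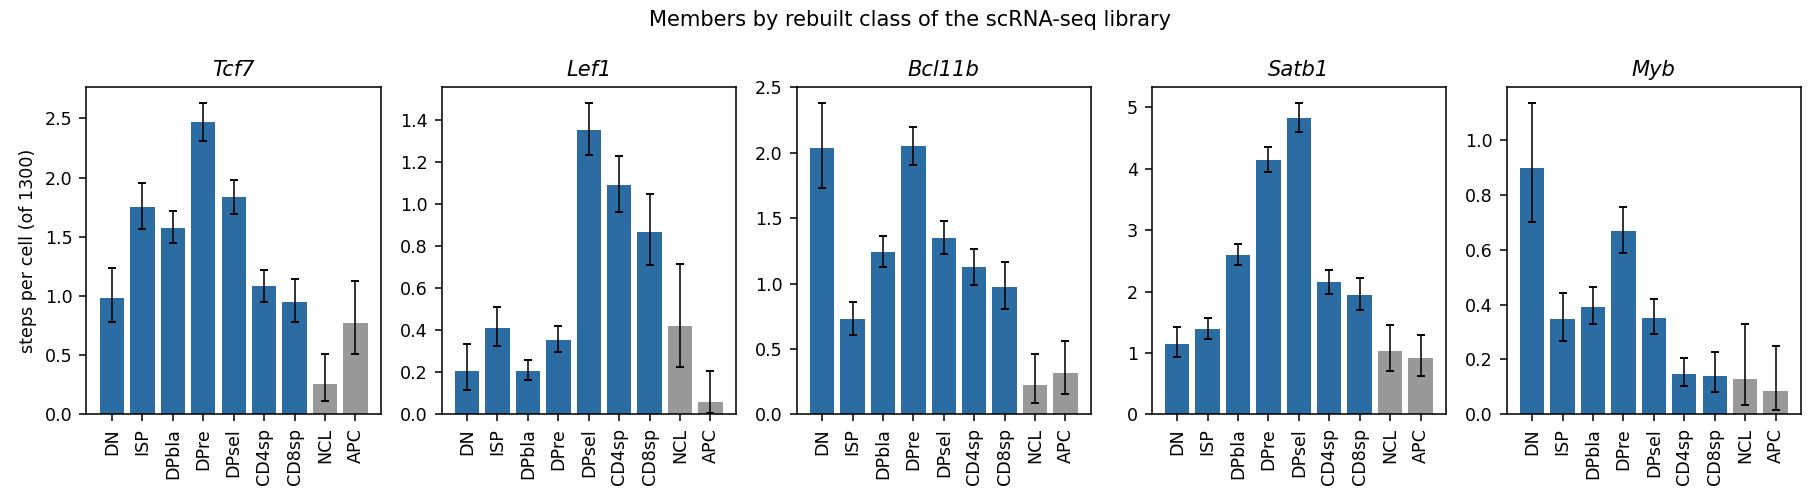
Steps per cell, out of 1300 after thinning, on the y axis for each of the 5 genes in 9 classes of the scRNA-seq library, with thymocyte classes in blue and NCL-like and APC-like cells in grey. Bars are means over cells and error bars exact Poisson 95% intervals. Lef1 stands at 1.35 in DPsel-like against 0.355 in DPre-like cells, and Myb at 0.897 in DN-like against 0.142 in CD8sp-like cells.

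Cells outside the T lineage gave a floor for these levels. APC-like cells, with a median of 2412 steps before thinning against 1905 in DPre-like cells, still gave Tcf7 in 45.7% of thinned cells, Satb1 in 40.0%, Bcl11b in 25.7%, Myb in 8.57% and Lef1 in 5.71%. The same cells gave 0.771 steps per cell of Lck and 0.829 of Thy1, genes of T cells, and the source of that RNA was not tested. The NCL-like shares of Tcf7 (19.4%) and Bcl11b (16.1%) were below those of APC-like cells and are not read as expression. Those of Lef1 (32.3%, 16.7% to 51.4%) and Satb1 (58.1%, 39.1% to 75.5%) were above the APC-like shares, of 0.700% to 19.2% for Lef1 and 23.9% to 57.9% for Satb1, with overlapping intervals. The Myb shares of the SP classes, 14.4% (CD4sp-like) and 11.7% (CD8sp-like), lay within the APC-like interval of 1.80% to 23.1%. The same held for the Tcf7 shares of DN-like (61.5%), CD4sp-like (61.4%) and CD8sp-like (58.3%) cells, beside an APC-like interval of 28.8% to 63.4%, and for the Lef1 shares of DN-like (16.7%) and DPbla-like (17.0%) cells, beside 0.700% to 19.2%. Myb in SP-like cells, Tcf7 in DN-like and SP-like cells and Lef1 in DN-like and DPbla-like cells were not told apart from thinned APC-like cells. NCL-like cells held 0.258 steps of Tcf7 per cell (0.111 to 0.509). The DN-like and CD8sp-like intervals, 0.779 to 1.23 and 0.784 to 1.14, lay above this. Without thinning Tcf7 was found in 57.1% of APC-like, 93.6% of DN-like and 79.2% of CD8sp-like cells. The NCL-like levels of Myb (0.129) and Lef1 (0.419) showed no such gap. The DN-like level of Satb1, 1.15 steps per cell, also lay within the APC-like interval of 0.625 to 1.29, although its share of 62.8% did not. The B cell gene Cd79a was at 0 in DN-like, DPsel-like and CD8sp-like cells and at most 0.0186 steps per cell in another thymocyte class, against 1.97 in APC-like cells. Cd79b, the other chain of the same receptor complex, was found in 11.5% of DN-like cells at 0.115 steps per cell, the highest among the named thymocyte classes, against 7.43% of DPre-like and 37.1% of APC-like cells. Summed myeloid markers lay between 0.358 and 0.577 in the named thymocyte classes against 6.94 in APC-like cells, and markers of stroma and epithelium between 0.0842 and 0.346. Among named thymocyte classes DN-like cells held the highest value of both summed lists, and the part of such cells in the DN-like levels was not tested.

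From DN-like to DPre-like cells the question is how these genes stand at each end of beta-selection and the blast divisions. Satb1 was 3.59 times as high in DPre-like cells (2.90 to 4.49), Tcf7 2.50 times (1.98 to 3.20) and Lef1 1.73 times (1.03 to 3.12). Bcl11b stood at a ratio of 1.00 (0.846 to 1.20) and Myb at 0.742 (0.567 to 0.981). Thus 3 of the 5 genes were higher by at least 1.5 times, where 27.0% of all genes measured were, and none was lower by as much, where 20.3% of genes were. The Lef1 value rests on 16 steps in the DN-like cells, and the DN-like levels of Tcf7, Lef1 and Satb1 lay within the APC-like intervals. These calls depend on bringing the classes to one depth, since DN-like cells had a median of 3633 steps and DPre-like cells 1905. With no thinning Satb1 stood at 1.95, Tcf7 at 1.16, Lef1 turned over to 0.869, and Bcl11b and Myb stood at 0.590 and 0.398, so that 1 of the 5 genes was higher by at least 1.5 times, as were 4.45% of all genes, and 2 were lower, as were 71.0%.

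Between DPre-like and DPsel-like cells, where signals through the T cell receptor set in, Lef1 was 3.80 times as high in DPsel-like cells (3.13 to 4.65), a ratio exceeded by 1.80% of the 6456 genes measured. Satb1 stood at 1.17 (1.09 to 1.25). Tcf7 stood at 0.743 (0.670 to 0.823), Bcl11b at 0.659 (0.586 to 0.740) and Myb at 0.529 (0.422 to 0.660). Hence 1 gene was higher by at least 1.5 times, as were 17.1% of all genes, and 2 were lower, as were 18.1%. The Myb value depends on which of the clusters of the DPsel-like class are counted, at 0.138 without the cluster led by Hbb-bs and 0.992 without the one led by Itm2a, both described below. The Bcl11b value lay near the limit and moved to 0.740 with another random draw of the thinning. Lef1 and its relative Tcf7 stood on opposite sides of 1.

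SP-like cells, CD4sp-like and CD8sp-like together, held less of every one of the 5 genes than DPsel-like cells. The ratios were 0.415 for Myb (0.294 to 0.579), 0.431 for Satb1 (0.394 to 0.470), 0.566 for Tcf7 (0.496 to 0.644), 0.750 for Lef1 (0.652 to 0.863) and 0.795 for Bcl11b (0.693 to 0.913). The first 3 were lower by at least 1.5 times, as were 14.2% of the 6355 genes measured, and none was higher, as were 11.7%. The Bcl11b value moved to 0.641 with another random draw of the thinning and the Tcf7 value to 0.671 without the Hbb-bs-led DPsel-like cluster, where the Myb value turned over, as described below.

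Set against DPre-like cells, SP-like cells held 2.85 times as much Lef1 (2.33 to 3.51) and less of the other genes, with ratios of 0.524 for Bcl11b (0.462 to 0.593), 0.502 for Satb1 (0.460 to 0.549), 0.420 for Tcf7 (0.371 to 0.475) and 0.219 for Myb (0.160 to 0.297). Lef1 alone was higher by at least 1.5 times, as were 18.4% of the 6571 genes measured, and the remaining 4 were lower, as were 23.3%. For Myb and for Tcf7, at 1.04 steps per cell, the SP-like level is itself within the APC-like interval. That of Tcf7 lay above the NCL-like interval of 0.111 to 0.509.

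Between the CD4sp-like and CD8sp-like cells no difference was seen at this depth. The ratios ran from 1.05 for Myb (0.571 to 1.99) to 1.26 for Lef1 (0.997 to 1.59), every interval included 1, and none of the 5 genes passed 1.5 times in either direction, where 15.5% of the 4317 genes measured were higher and 10.6% lower. The intervals were 0.909 to 1.43 for Tcf7, 0.923 to 1.44 for Bcl11b and 0.942 to 1.29 for Satb1.

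**Figure D2:**
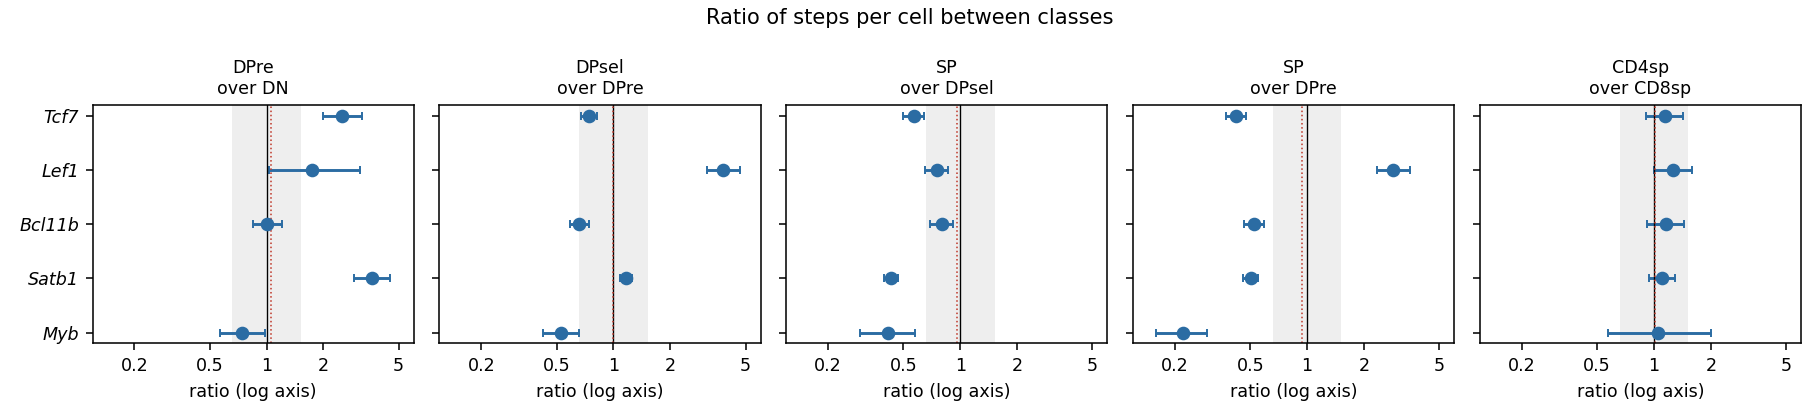
Ratio of steps per cell between classes on a log axis, 1 panel per comparison and 1 row per gene, with exact conditional 95% intervals. The grey band spans ratios under 1.5 times in either direction and the dotted line is the median of all genes. Lef1 sits to the right of the band in DPsel-like over DPre-like (3.80) and SP-like over DPre-like (2.85), and all 5 genes sit inside it in CD4sp-like over CD8sp-like.

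The DPsel-like class was made of 2 clusters, of 156 and 185 cells, and Myb differed between them more than between DPre-like and SP-like cells. This pair was chosen after the values of the clusters had been seen. The first cluster was led by Hbb-bs and Ikzf2, with Cd69, Cd5, Egr1 and Nr4a1 among its leading markers, although the hemoglobin gene Hbb-bs was found in only 1.76% of thinned DPsel-like cells. The second was led by Itm2a, with Cd40lg, Il7r and Bcl2 next to it. Cd40lg is a listed CD4sp marker, and this cluster scored 0.475 for DPsel against 0.314 for CD4sp. Zbtb7b, another CD4sp marker, stood at 0.168 steps per cell here and had no step in the first cluster. The part of cells already set on the CD4 lineage in this cluster was not tested. Myb stood at 0.660 steps per cell in the Hbb-bs-led cluster and 0.0919 in the Itm2a-led one, a ratio of 7.19 (4.28 to 12.8) that 0.117% of the genes measured exceeded. The Itm2a-led level was at the APC-like floor of 0.0857, so the ratio is one against background.

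The other genes differed less between these clusters. Tcf7 stood at 2.17 and 1.55 steps per cell, a ratio of 1.41 (1.20 to 1.65), and Satb1 at 4.31 and 5.28, a ratio of 0.817 (0.739 to 0.902). Lef1 stood at a ratio of 1.10 (0.913 to 1.33) and Bcl11b at 0.888 (0.735 to 1.07), both with 1 inside the interval. Of the 5 genes 1 was thus higher by at least 1.5 times, as were 15.3% of all genes, and none lower, as were 14.4%. Cd69, Cd5 and Nr4a1 are markers by which the class was named and were among the leading genes of the first cluster, and Il7r was among those of the second, so the ratios of these genes describe how the clusters were drawn and are no finding. Nr4a1 stood at a ratio of 4.39 (2.14 to 9.89), Cd5 at 2.42 (1.81 to 3.26) and Cd69 at 1.86 (1.26 to 2.75). Rag1 stood at 1.71 (1.10 to 2.70) and Cd8a at 2.66 (2.12 to 3.35). Il7r, the survival receptor of maturing cells, and Ccr7, a homing receptor, stood at 0.0270 (0.0032 to 0.10) and 0.0949 (0.0249 to 0.258). The Myb level of the Itm2a-led cluster was thus near that of the SP-like cells, and that of the Hbb-bs-led cluster near the DPre-like level of 0.666. Without the Hbb-bs-led cluster the Myb ratio of SP-like to DPsel-like cells turned to 1.59 and that of DPsel-like to DPre-like cells was 0.138, and without the Itm2a-led one they were 0.221 and 0.992.

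The CD4sp-like class also had 2 clusters, one of 164 cells led by Igfbp4 and one of 72 cells led by Tnfrsf9, with Tnfrsf4, Tnfrsf18 and Ikzf2, which are genes of regulatory or strongly signalled T cells. The Tnfrsf9-led cluster stood at 0.738 of the Igfbp4-led level for Satb1 (0.597 to 0.905), 0.771 for Lef1 (0.573 to 1.03), 0.828 for Tcf7 (0.618 to 1.10) and 0.883 for Bcl11b (0.666 to 1.16), and at 1.35 for Myb (0.623 to 2.79). None of the 5 passed 1.5 times, where 14.9% of the 3120 genes measured were higher and 16.8% lower.

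**Figure D3:**
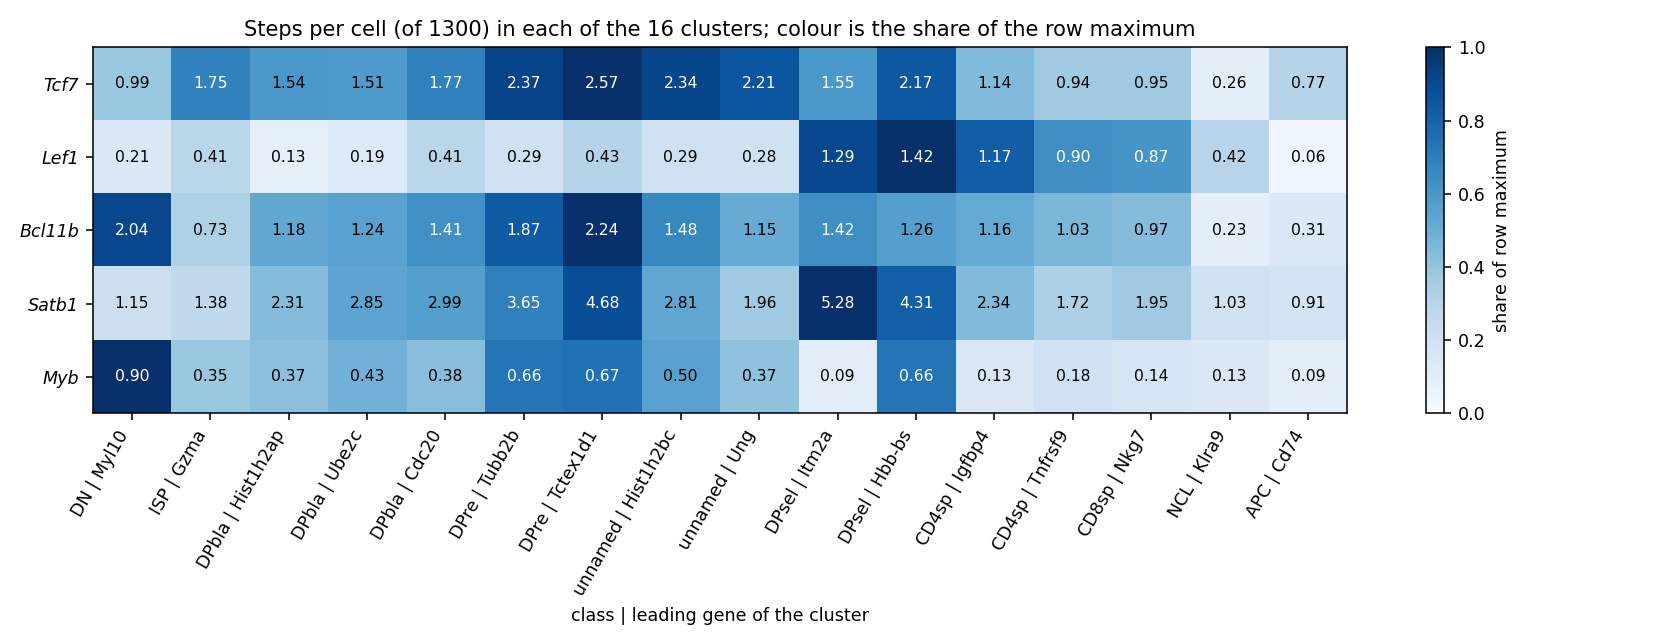
Steps per cell, out of 1300, of the 5 genes (rows) in each of the 16 clusters (columns, named by class and leading gene), with colour as the share of the row maximum. Myb stands at 0.66 in the Hbb-bs-led and 0.09 in the Itm2a-led DPsel-like cluster, and Lef1 is highest in these clusters at 1.42 and 1.29.

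Over the 16 clusters, the courses of Bcl11b and Myb were the most alike of the 10 pairs (Pearson r of 0.760 over cluster means), followed by Tcf7 with Satb1 (0.659) and Tcf7 with Bcl11b (0.643). With mean log2 values the order changed to Tcf7 with Bcl11b (0.762), Tcf7 with Satb1 (0.750) and Bcl11b with Myb (0.744). Lef1 went with neither Tcf7 (-0.03) nor Myb (-0.26). These correlations are descriptions over clusters of 1 library, and the cluster means share that library and any free RNA in it, which was not measured.

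The genes whose cluster means were most like those of each of the 5 are given here with their r. For Tcf7 they were Mgst3 (0.926), Arntl (0.904), Ldhb (0.888), Dap3 (0.869) and Trbc2 (0.867), a constant segment of the T cell receptor beta chain. For Lef1 they were Tnik (0.929), a kinase, Cd69 (0.923), an early activation marker, B630019A10Rik, A430093F15Rik and Kcnn4 (0.907), a potassium channel. For Bcl11b they were Lck (0.926), the kinase of the pre-receptor and receptor, Rhoh (0.887), Fam78a, Ramp1 and Nck2 (0.849). For Satb1 they were Ccr9 (0.884), a chemokine receptor of thymocytes, Vezf1, F13a1, Ccm2 and Top2b (0.828). For Myb they were Ganc (0.926), 5830418P13Rik, Nck2 (0.882), A930002I21Rik and Aqp11 (0.860). With mean log2 values in place of steps, Ldhb and Trbc2, Cd69, Lck, Rhoh and Ramp1 were still among the 5 most alike of their gene, and the other 19 named here were not.

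Counted in single cells, DPre-like cells held on average the most of the 5 genes at once. The mean number found after thinning was 3.50 ± 0.82 (SD over 377 cells) for DPre-like, 3.24 ± 0.93 for DPsel-like, 2.90 ± 0.91 for DPbla-like, 2.76 ± 1.16 for DN-like and 2.65 ± 1.02 for ISP-like cells. It was 2.75 ± 1.01 for CD4sp-like and 2.58 ± 1.00 for CD8sp-like cells, and 3.13 ± 0.90 and 2.83 ± 1.09 for the unnamed clusters led by Hist1h2bc and Ung. All thinned DPre-like cells held at least 2 of the 5 genes. All 5 together were found in 41 of 377 DPre-like cells (10.9%, exact interval 7.92% to 14.5%), 5 of 78 DN-like cells (6.41%, 2.11% to 14.3%), 7 of 117 cells of the Ung-led cluster (5.98%, 2.44% to 11.9%), 17 of 341 DPsel-like cells (4.99%) and 1 of 120 CD8sp-like cells (0.833%). APC-like cells held 1.26 ± 1.12 and NCL-like cells 1.39 ± 0.92 of them. Within the classes, pairs of genes were found together about as often as the product of their shares, from 0.718 times for Lef1 with Myb in CD4sp-like cells to 1.29 times for the same pair in DPbla-like cells.

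Other genes of the same pathways were described by lists, whose counts are to be read against the shares of all genes. Those were 27.0% higher and 20.3% lower by at least 1.5 times in DPre-like over DN-like cells, with a median ratio of 1.06, and 18.4% and 23.3% in SP-like over DPre-like cells, with a median of 0.941. Counts of list genes moved with depth as well, and with no thinning the effector list below had 4 genes higher and 5 lower and the NuRD list none higher and 13 lower in the first comparison, beside 4.45% and 71.0% of all genes. In the second the shares of all genes were then 32.1% and 11.6%, and the effector list had 3 higher and 3 lower. Among the partners of TCF1 and LEF1 in WNT signalling, 8 of 21 listed genes were deep enough from DN-like to DPre-like cells. Of these, 3 were higher by at least 1.5 times, Jup, Bcl9 and Aes, and 1 was lower, the corepressor gene Tle3 at a ratio of 0.376 (0.218 to 0.665), beside 27.0% and 20.3% of all genes. Jup, the beta-catenin relative gamma-catenin, stood at 3.83 with an interval of 0.987 to 32.8. From DPre-like to SP-like cells 14 were deep enough, 2 were higher, Axin1 and the corepressor gene Tle4 at 1.93 (0.880 to 4.45), and 1 was lower, Jup at 0.572 (0.315 to 1.01), beside 18.4% and 23.3% of all genes. The list medians were 1.19 and 0.877.

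Of the list of NuRD complex genes, the partner of BCL11B, and its relative Bcl11a, 13 of 14 genes were deep enough, all but Bcl11a, of which 1 was higher and 5 lower in DPre-like than in DN-like cells, beside 27.0% and 20.3% of all genes, with a list median of 0.769 beside 1.06. Chd3, one of its remodelling ATPases, stood at 0.246 (0.120 to 0.511), Mta1 at 0.259 (0.113 to 0.605), Mta3 at 0.324 (0.213 to 0.497) and the histone-binding Rbbp7 at 0.368 (0.20 to 0.696). In SP-like against DPre-like cells 3 were higher and 1 lower, beside 18.4% and 23.3% of all genes, with a list median of 1.12 beside 0.941. Chd3 was then 11.8 times as high (7.35 to 19.9), from 0.0504 steps per cell in DPre-like to 0.665 (CD4sp-like) and 0.450 (CD8sp-like), Rbbp7 stood at 2.52 (1.64 to 3.93), and Mta3 was lower again at 0.417 (0.248 to 0.678). The DPre-like level of Chd3 was near the APC-like one of 0.0571, so its ratio is one against background.

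Of the factors that specify the T lineage together with these genes, 11 of 13 were deep enough from DN-like to DPre-like cells. There, 3 were higher, Gfi1, Ets1 and Tcf12, and 4 were lower, Notch1, Notch3, Runx1 and Gata3, beside 27.0% and 20.3% of all genes, and the list median was 0.972. Notch1, the receptor that starts the T program, stood at 0.158 (0.0963 to 0.256) and Notch3 at 0.223 (0.0971 to 0.515). From DPre-like to SP-like cells 1 of 10 was higher, Tox, and 4 were lower, among them the repressor gene Gfi1 at 0.0948 (0.0336 to 0.218) and the E-protein gene Tcf12 at 0.215 (0.163 to 0.279), beside 18.4% and 23.3% of all genes, and the list median was 0.951.

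The T lineage effector genes, many of them receptor and signalling genes, had 8 higher and 2 lower of 14 in DPre-like against DN-like cells, beside 27.0% and 20.3% of all genes, with a list median of 1.80 beside 1.06. The survival gene Bcl2l1 stood at 6.78 (2.58 to 25.2), Cd6 at 3.98 (1.49 to 15.0) and the costimulatory receptor gene Cd28 at 3.44 (2.01 to 6.40). In SP-like against DPre-like cells none was higher and 6 were lower, Thy1, Lck, Cd27 and Cd247 as well as Bcl2l1 at 0.226 (0.145 to 0.343) and Ptcra, the pre-receptor alpha chain, at 0.0156 (0.0004 to 0.0897). The shares of all genes there were 18.4% and 23.3%, and the list median was 0.891. The Ptcra ratio rests on a single step in the SP-like cells.

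Of 4 genes in the list of the MYB family and its partners that were deep enough, 1 was higher and 2 lower in DPre-like than in DN-like cells, beside 27.0% and 20.3% of all genes. Kmt2a stood at 0.377 (0.233 to 0.621), Men1 at 0.503 (0.198 to 1.43) and the coactivator gene Ep300 at 5.17 (0.847 to 212). Ep300 had only 0.0128 steps per cell in DN-like cells. The list median was 0.820 beside 1.06. None passed the fold from DPre-like to SP-like cells, beside 18.4% and 23.3% of all genes. Of 8 genes in the list of the SATB family and loop factors, 2 were higher and none lower in DPre-like than in DN-like cells, the cohesin gene Rad21 at 2.36 (0.954 to 7.54) and Wapl at 1.59 (0.866 to 3.18), beside 27.0% and 20.3% of all genes. In SP-like against DPre-like cells none was higher and 3 were lower, Ctcf, the cohesin loader gene Nipbl at 0.425 (0.312 to 0.573) and Smc3 at 0.566 (0.388 to 0.815), beside 18.4% and 23.3% of all genes, and the list median was 0.749. Progenitor genes of other lineages were too low to compare but for 1, Tyrobp, at 0.978 (0.408 to 2.32).

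In scATAC-seq, the signal of a locus was the sum over its peaks per 10000 counts in all non-overlapping peaks. Median counts per cell ran from 1220 to 10983 over the sorts and the blocks of cell numbers in the sample titles, here called label series, whose meaning the labels do not give. In sums over sorted cells, fewer accessible cells and less signal per cell cannot be told apart. The sorts were checked at marker loci with 20 kb on both sides. Cd4 itself gave 1.54 per 10000 in DN, 3.08 in DP, 1.73 in CD4 and 2.57 in CD8 cells, so that it was lower in the CD4 sort (1.32 to 2.23) than in the CD8 sort (2.03 to 3.22), against the labels, with overlapping intervals. Rag1 gave 0.969 per 10000 in DN, 2.73 in DP, 0.323 in CD4 and 1.86 in CD8 cells, and Cd8a gave 1.06, 3.50, 0.909 and 2.30, so that CD8 cells lay nearer to DP than CD4 cells did. Il2ra, a DN marker, was not higher in DN (2.03) than in DP (2.73). Zbtb7b, the CD4 lineage factor, gave 0.939, 0.595, 1.20 and 0.881 in the same order, and Runx3, the CD8 lineage factor, 1.89, 1.16, 1.47 and 1.86. Markers of other cells also differed. The natural killer gene Klrd1 gave 0.379 in DN, 0.0350 in DP, 0.469 in CD4 and 0.915 in CD8 cells, and the myeloid gene Lyz2 gave 0.106, 0 (no count, with an upper limit of 0.129), 0.733 and 0.136. The B cell gene Cd79a gave 2.38, 1.65, 2.29 and 2.74, the myeloid and B cell gene Spi1 1.57, 1.19, 1.38 and 0.847, and the epithelial gene Epcam 0.273, 0.105, 0.0586 and 0.271. The part of these in the results below was not tested.

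With 100 kb on both sides, all 5 loci were less accessible in DN than in DP cells, while with 20 kb the Myb locus was more accessible. Of the 166 peaks 62 lay inside the genes. Some were nearest to the start of another gene, such as Vdac1 at Tcf7 and Hadh at Lef1, and this part of the signal was not separated. Tcf7 gave 6.15 per 10000 in DN, 9.07 in DP, 9.06 in CD4 and 9.11 in CD8 cells, so that the DN cells stood apart from 3 sorts at one level. Satb1 gave 2.48 in DN, 4.59 in DP, 5.54 in CD4 and 6.27 in CD8 cells, lowest in DN and highest in the SP sorts. Lef1 gave 4.91 in DN, 7.46 in DP, 6.60 in CD4 and 8.10 in CD8 cells.

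Bcl11b and Myb had a different shape, with DP cells on top. Bcl11b gave 3.03 in DN, 5.04 in DP, 2.67 in CD4 and 4.17 in CD8 cells. Myb gave 5.89 in DN, 9.95 in DP, 3.96 in CD4 and 5.96 in CD8 cells. The unsorted Total cells gave 11.0 for Tcf7, 5.52 for Lef1, 3.81 for Bcl11b, 4.46 for Satb1 and 7.66 for Myb, and over their 36 sets these ranged from 8.14 to 13.5, 4.25 to 7.00, 2.39 to 5.19, 3.23 to 5.88 and 5.41 to 10.2.

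The DN to DP ratio was 0.541 for Satb1 (0.428 to 0.686), 0.592 for Myb (0.507 to 0.692), 0.600 for Bcl11b (0.482 to 0.749), 0.658 for Lef1 (0.551 to 0.785) and 0.678 for Tcf7 (0.578 to 0.795). Thus 4 of the 5 loci were lower in DN by at least 1.5 times, with Tcf7 just short of it, where 6.40% of all 17041 loci were lower and 13.7% higher. With 20 kb on each side Myb turned over to 1.71, and with cells thinned to 1000 counts Lef1 stood at 0.880, so these calls did not hold there. The median over all loci was 1.05, and between 93.0% and 97.5% of loci had a higher ratio than each of the 5. Over label series, the 5 DN values of Tcf7 (5.22 to 7.02), Satb1 (2.04 to 3.16) and Myb (5.33 to 6.09) did not overlap the 3 DP values (8.90 to 9.34, 3.97 to 4.99 and 7.75 to 10.6). Those of Bcl11b (2.08 to 3.89 against 3.58 to 5.60) and Lef1 (3.70 to 8.57 against 5.96 to 7.82) overlapped. Within label series 4 and 31, which held both sorts, the ratio was 0.637 and 0.752 for Tcf7, 0.708 and 1.44 for Lef1, 0.523 and 0.583 for Bcl11b, 0.561 and 0.722 for Satb1 and 0.596 and 0.687 for Myb. The Lef1 ratio thus turned over in series 31, which rests on 37 and 20 counts.

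From DP to SP cells the loci parted. Myb was lower at 0.491 (0.417 to 0.579) and Bcl11b at 0.667 (0.537 to 0.830), while Tcf7 stood at 1.00 (0.864 to 1.16), Lef1 at 0.978 (0.829 to 1.16) and Satb1 at 1.28 (1.05 to 1.58). Only Myb was lower by at least 1.5 times, Bcl11b being just outside that limit, where 7.49% of loci were lower and 11.8% higher. With 20 kb on each side Myb stood at 0.898 and was no longer past the limit. Within label series 4 and 31, Myb stood at 0.496 and 0.551, Bcl11b at 0.664 and 0.955, Tcf7 at 1.05 and 0.818, Lef1 at 0.948 and 1.35 and Satb1 at 1.17 and 1.49. The RNA of Tcf7 and Satb1 was lower in SP-like than in DPre-like cells, at ratios of 0.420 and 0.502, while their loci, with 100 kb on both sides, were not lower in SP than in DP cells. For Tcf7 this did not hold with 20 kb, where SP stood at 0.726 of DP, or without label series 4, where it stood at 0.812. The DP sort was not divided into the DP classes of the RNA, and the rebuilt classes and the sorts are not the same cells.

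CD4 cells were lower than CD8 cells at Bcl11b, with a ratio of 0.640 (0.483 to 0.847), and at Myb, with 0.664 (0.527 to 0.836). These 2 loci were lower by at least 1.5 times and none was higher, where 9.71% of loci were lower and 10.3% higher. Lef1 stood at 0.815 (0.676 to 0.982), Satb1 at 0.884 (0.718 to 1.09) and Tcf7 at 0.994 (0.842 to 1.18). With overlapping peaks counted as well, Lef1 turned over to 1.14 and Satb1 to 1.17. Within label series 4 and 31 the Bcl11b ratio was 0.614 and 0.747 and the Myb ratio 0.639 and 1.01, the last on 27 and 8 counts, so that neither was past the limit in series 31. With 20 kb on each side the Myb ratio was 0.866, and with overlapping peaks the Bcl11b ratio was 0.811. The CD8 sort was also closer to DP than the CD4 sort at Rag1 and Cd8a, as given above, and its part in the Bcl11b and Myb values was not tested. In RNA neither gene differed between CD4sp-like and CD8sp-like cells beyond counting error.

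**Figure D4:**
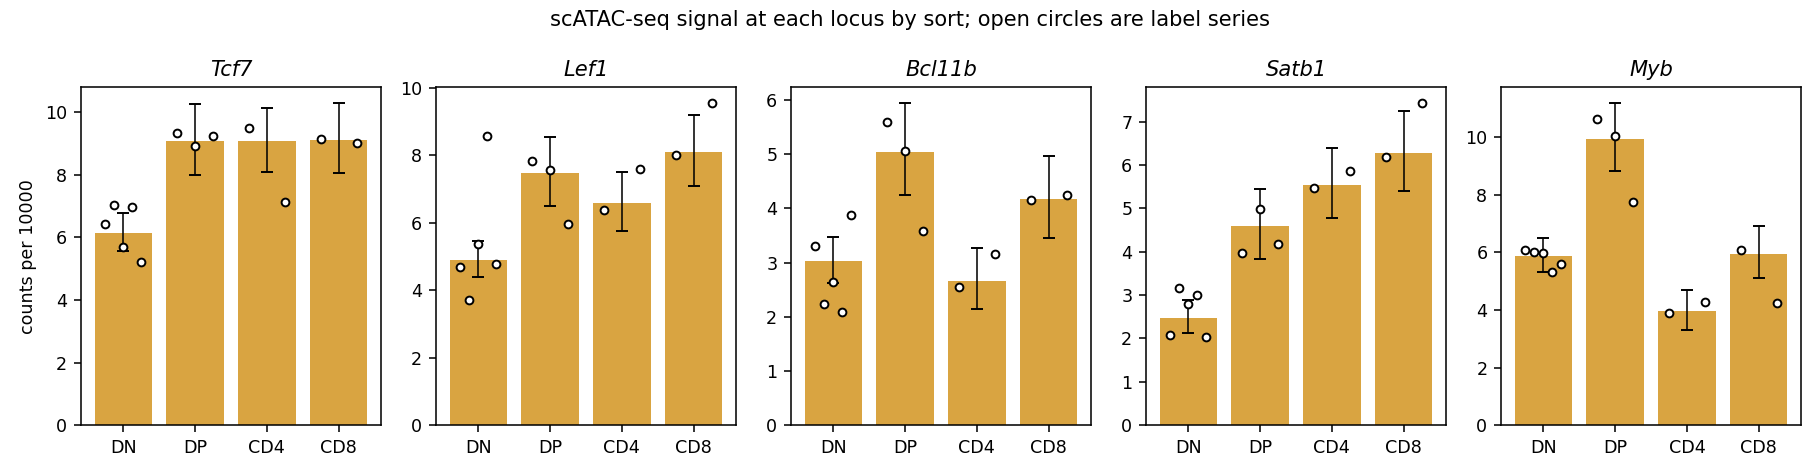
scATAC-seq signal of each locus, gene body with 100 kb on both sides, in counts per 10000 on the y axis by sort. Bars pool the cells of a sort, error bars are exact Poisson 95% intervals, and open circles are label series of that sort. DN cells are below DP cells at all 5 loci, and Myb stands at 9.95 in DP and 3.96 in CD4 cells.

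Of the 166 peaks at the loci, 36 had at least 40 counts over the 4 sorts. In DN against DP cells, 20 of them were lower by at least 1.5 times and 2 higher, where 23.6% of the 11546 peaks of that depth were lower and 20.0% higher. In SP against DP cells 12 were lower and 6 higher, beside 21.7% and 22.1% of all such peaks, and in CD4 against CD8 cells 14 were lower and 3 higher, beside 25.6% and 21.5%. Distances below count from the start of the gene, along its direction.

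The 5 peaks whose centres are printed above were each picked as the lowest in SP to DP at its locus. All were highest in DP cells, which against the SP sorts is favoured by that pick and is no finding. Their DN to DP ratios share the same DP counts, and no interval allows for the pick. In Tcf7, the peak at +7.43 kb inside the gene (chr11:52273583-52277582) gave 44 counts in DN, 53 in DP, 23 in CD4 and 33 in CD8 cells, or 0.666, 1.86, 0.674 and 1.12 per 10000. It stood at 0.359 in DN to DP (0.235 to 0.546) and 0.474 in SP to DP (0.320 to 0.704). It was the only 1 of 10 Tcf7 peaks lower by at least 1.5 times in SP than in DP cells, and 4 were higher. The shares of all such peaks were 21.7% and 22.1%. Each of the 4 higher peaks had 1 inside its interval. The Tcf7 peak with the most counts over the 4 sorts, at -31.2 kb, gave 1.01 in DN, 1.3 in DP, 1.99 in CD4 and 1.42 in CD8 cells, at ratios of 0.783 (0.516 to 1.20) and 1.33 (0.912 to 1.99). The peak at +51.1 kb, nearest to the start of Skp1a, had the highest ratios of the locus, 2.07 in DN to DP (0.776 to 6.96) and 2.24 in SP to DP (0.844 to 7.51).

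At Lef1, the peak at -84 kb upstream of the gene (chr3:131024510-131028509) gave 10 counts in DN, 18 in DP, 4 in CD4 and 13 in CD8 cells. It stood at 0.240 in DN to DP (0.0990 to 0.549) and 0.424 in SP to DP (0.205 to 0.872), the lowest of the 9 Lef1 peaks in both. The peak over the Lef1 start, at +1.67 kb, gave 0.242 per 10000 in DN, 0.385 in DP, 0.880 in CD4 and 0.373 in CD8 cells. Its SP to DP ratio was 1.67 (0.844 to 3.61), and CD4 stood at 2.36 times CD8 (1.15 to 5.22). The next peak inside the gene, at +7.59 kb, had the highest SP to DP ratio of the locus, 2.05 (0.889 to 5.51), and the peak with the most counts over the 4 sorts, at +98.2 kb, stood at 0.694 in DN to DP (0.441 to 1.11) and 1.13 in SP to DP (0.746 to 1.74). With the Total cells counted as well, the peak at -90.7 kb had the most, and it stood at 0.479 (0.278 to 0.828) and 0.753 (0.462 to 1.25).

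At Bcl11b, 5 peaks were deep enough to compare, 4 inside the gene and 1 over its start. The peak at +38.7 kb (chr12:107962918-107966917) gave 24 counts in DN, 15 in DP, 2 in CD4 and 12 in CD8 cells, with an SP to DP ratio of 0.419 (0.187 to 0.931) and a CD4 to CD8 ratio of 0.144 (0.0157 to 0.648). The peak at +75.4 kb stood at 0.432 in DN to DP (0.256 to 0.729) and 0.421 in SP to DP (0.247 to 0.715). The peak at +82.3 kb was lowest in DN, at 0.320 of DP (0.160 to 0.625), and level with DP in SP at 0.917 (0.546 to 1.58). The peak over the start, at -0.52 kb, stood at 0.648 (0.315 to 1.38) and 0.577 (0.271 to 1.25). The peak at +10.3 kb had the highest ratios of the locus, 0.865 in DN to DP (0.349 to 2.33) and 1.29 in SP to DP (0.557 to 3.34).

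The region between Bcl11b and its neighbour Vrk1, chr12:106097427-107810402, is a gene desert where an enhancer of Bcl11b is known to lie far downstream of the gene. It was added after the locus values had been seen, as it lies outside the 100 kb window. Its 100 peaks gave 7.19 per 10000 in DN, 13.5 in DP, 9.79 in CD4 and 11.5 in CD8 cells. DN stood at 0.532 of DP (0.464 to 0.610), SP at 0.784 (0.690 to 0.890) and CD4 at 0.850 of CD8 (0.729 to 0.992), so DN cells were lowest here, and below DP cells as at the Bcl11b locus itself.

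At Satb1, the peak at +19.6 kb inside the gene (chr17:51811704-51815703) gave 14 counts in DN, 18 in DP, 5 in CD4 and 13 in CD8 cells. It stood at 0.336 in DN to DP (0.155 to 0.715) and 0.449 in SP to DP (0.220 to 0.914), against the direction of its locus, where the SP signal was above DP. The start peak, at +0.077 kb, stood at 0.765 (0.372 to 1.64) and 1.38 (0.724 to 2.81), and the peak with the most counts over the 4 sorts, at -46.1 kb, at 0.522 (0.294 to 0.937) and 1.03 (0.626 to 1.74). The peak at -73.3 kb gave 18 counts in CD4 and 2 in CD8 cells, a ratio of 7.79 (1.86 to 69.2).

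At Myb, the downstream peaks carried most of the difference. The peak at +68.2 kb (chr10:21090751-21094750) gave 55 counts in DN, 57 in DP, 10 in CD4 and 29 in CD8 cells, or 0.833, 2.00, 0.293 and 0.983 per 10000. It stood at 0.417 in DN to DP (0.283 to 0.615), 0.307 in SP to DP (0.199 to 0.470) and 0.298 in CD4 to CD8 (0.130 to 0.630). The peak at +84.0 kb stood at 0.399 (0.219 to 0.723) and 0.328 (0.172 to 0.616), and that at -26 kb, the lowest in DN to DP, at 0.376 (0.196 to 0.716) and 0.585 (0.329 to 1.06). The peak over the Myb start, whose promoter sequence is printed above, was the exception. It gave 32 counts in DN, 6 in DP, 5 in CD4 and 7 in CD8 cells, a DN to DP ratio of 2.31 (0.951 to 6.74). With 20 kb in place of 100 kb on each side the Myb locus turned over to a DN to DP ratio of 1.71. With 100 kb the locus went the other way, at 0.592 (0.507 to 0.692), and the interval of the start peak included 1. The RNA of Myb was higher in DN-like than in DPre-like cells, at 0.897 against 0.666 steps per cell. The DP sort and the DPre-like class are not the same cells.

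**Figure D5:**
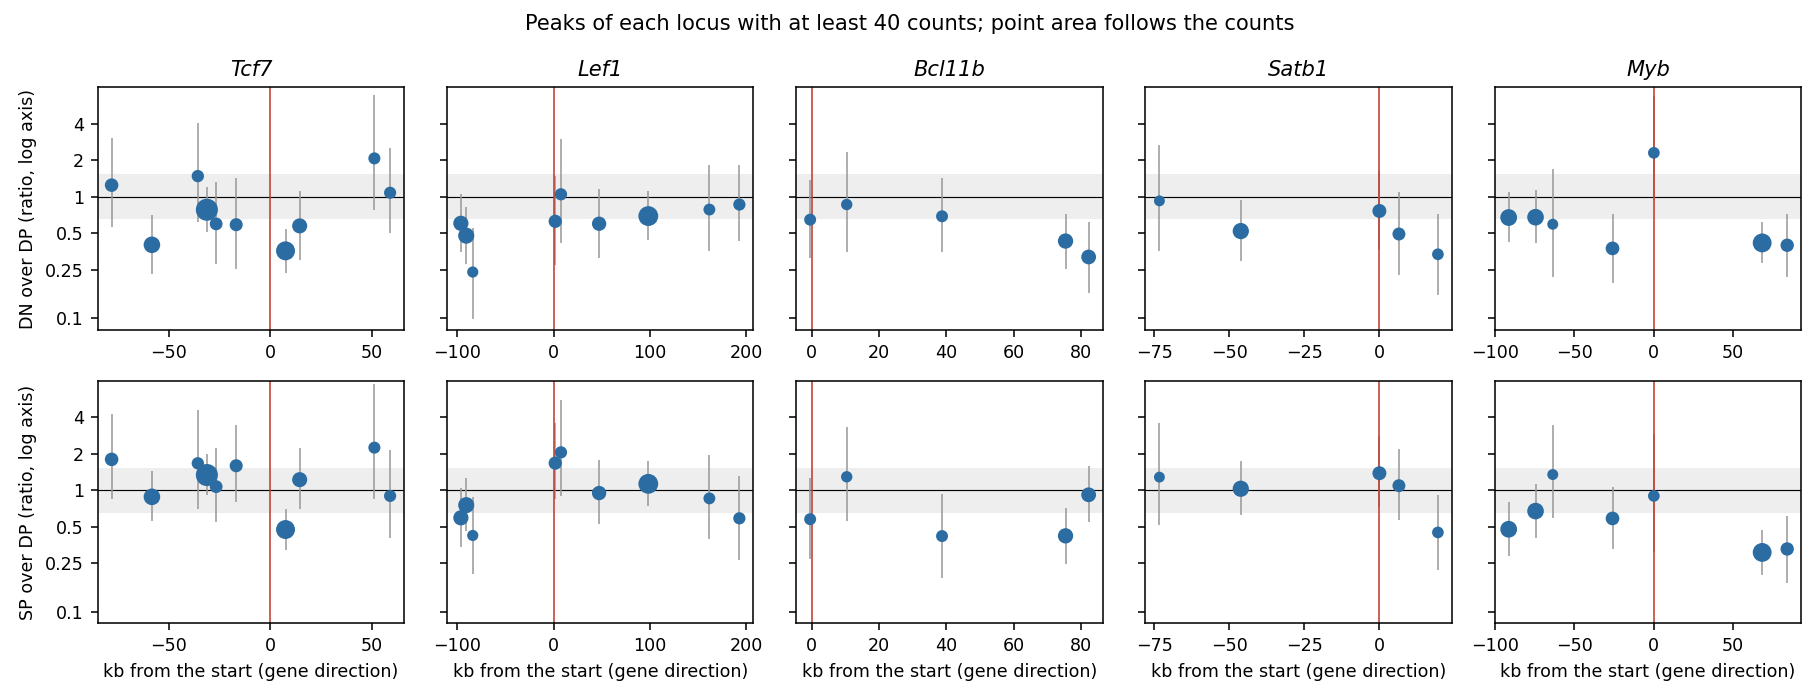
Ratio of signal in DN over DP (upper row) and SP over DP (lower row) on a log axis for each peak with at least 40 counts, by its distance in kb from the gene's start along the gene. Point area follows the counts, grey lines are exact 95% intervals, the grey band spans under 1.5 times and the red line marks the start. At Myb the peak over the start lies at 2.31 in DN over DP while the peak at +68.2 kb lies at 0.417, and at Tcf7 the peak at +7.43 kb lies below the band in both rows.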

How the data were processed

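scRNA-seq (10x Genomics, 1 library) had been processed by the authors to log2 values, quantile-normalized, for 8846 genes in 1993 cells. The submitters' processing notes name Cell Ranger 1.3.1 and the builds GRCm38.p5 and hg38. For scATAC-seq the authors deposited raw counts in 138317 peaks of 4000 bp, after trimming, alignment, removal of duplicates and peak calling on merged cells, so replicates do not differ in their peaks. Peak coordinates fell on GRCm38: 22.5% of peak centres lay within 2000 bp of an annotated start against 6.20% after a shift of 100000 bp, no peak ran past any of the 21 chromosome ends, and the 5 promoters matched the genome. Of its per-cell columns 1626 were used, and 362, whose names give no sort and no set number, were not. No pair of cells was identical.

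The 5 genes, the lists of related genes and the peaks were chosen with earlier results of these data known. Seurat 5.3.0 (R 4.3.3) was used for clustering (1286 of 1306 variable genes, 20 principal components, 30 neighbors, resolution 2), leaving out the 5 genes and listed ones. A cluster took a class name where the mean z score of its markers was at least 0.1 above that of the next class and at least 1 own marker was among its 30 leading genes; these limits were set after the clusters had been seen. No doublet caller was run, since the table holds normalized values, and cells with the most genes were left out as an alternative. Cells held 1356 to 22539 steps (median 2558) and a median of 1484 genes, and were thinned to 1300 steps. Classes rebuilt here may differ from those of the study.

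Ratios of steps per cell have exact conditional 95% intervals, shares exact Clopper-Pearson intervals and sums exact Poisson intervals (Python 3.11.15, numpy 2.4.6, scipy 1.17.1, pandas 2.3.3). Reads are not independent molecules, and intervals cover counting error only. A gene was compared with at least 20 steps in both classes together, a peak with at least 40 counts over 4 sorts, and a ratio of at least 1.5 in either direction was counted. Loci of all genes were computed the same way. One marker gene of other cells is not reported here. Genes named from lists are at most 4 per list with the largest ratio in either direction in SP-like over DPre-like or DPre-like over DN-like cells; genes named as most alike are the 5 with the highest r; peaks named are those over the start, with the most counts, or with the highest or lowest ratios. Further genes and peaks named beside a count or a cluster, the pairs of clusters and the Bcl11b desert were chosen after their values were seen. Alternatives changed the clustering, the thinning, the cells, the window, the peaks and the label series. Steps were also run on simulated data with known ratios, and the outcome is not given here. Figures were drawn with matplotlib 3.10.9.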

Additional observations from a re-analysis of the deposited data

How the results depend on the processing

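Of 310 alternative values of the gene ratios between classes, 279 stayed within the counting interval, 29 moved beyond it and 2 reversed, and of 240 alternative values of the locus ratios these were 215, 20 and 5. Of 868 alternative counts of list genes past the fold, 152 moved by over 1.5 times. The cause of each change below was not tested, except where fewer cells or peaks were used by construction.

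With no thinning, Tcf7 stood at 1.16 in DPre-like over DN-like, 0.662 in SP-like over DPsel-like, 0.503 in SP-like over DPre-like and 0.898 in CD4sp-like over CD8sp-like cells. Lef1 then reversed to 0.869 in the first and stood at 0.876 in SP-like over DPsel-like and 0.908 in the last, Bcl11b stood at 0.590 and Myb at 0.398 in the first, and Satb1 at 1.95, 0.498, 0.589 and 0.896 in the order given for Tcf7. Depth differs between classes, with a median of 3633 steps in DN-like and 1905 in DPre-like cells. Another random draw gave 0.641 for Bcl11b in SP-like over DPsel-like cells. For Satb1, 20 neighbors gave 1.27 in DPsel-like over DPre-like and 0.559 in SP-like over DPre-like, 30 principal components 1.26 in the first and 1.32 in CD4sp-like over CD8sp-like, and keeping the genes in the clustering 0.487 in SP-like over DPsel-like and 0.564 in SP-like over DPre-like. The alternatives with 1 DPsel-like cluster left out were chosen after seeing the data. Without the Hbb-bs-led cluster, DPsel-like over DPre-like was 0.627 for Tcf7, 1.27 for Satb1 and 0.138 for Myb, and SP-like over DPsel-like was 0.671 for Tcf7 and a reversed 1.59 for Myb. Without the Itm2a-led cluster the first was 0.881, 1.04 and 0.992, and the second 0.477 for Tcf7, 0.483 for Satb1 and 0.221 for Myb. At resolution 1 no separate CD8sp-like class formed, so comparisons that need it have no value there.

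At the loci, 20 kb on each side gave DN over DP of 0.468 for Tcf7 and a reversed 1.71 for Myb, SP over DP of 0.726 for Tcf7, 1.35 for Lef1 and 0.898 for Myb, and CD4 over CD8 of 0.866 for Myb. Peaks nearest to the gene's own start gave 0.569 for Tcf7 in DN over DP and 1.19 for Satb1 in CD4 over CD8. With overlapping peaks, CD4 over CD8 was a reversed 1.14 for Lef1 and 1.17 for Satb1, and SP over DP was 1.64 for Satb1. Cells thinned to 1000 counts gave 0.734 for Tcf7 and 1.11 for Satb1 in CD4 over CD8, 0.880 for Lef1 in DN over DP and 0.623 for Myb in SP over DP. Without label series 4, Tcf7 stood at 0.812 in SP over DP and 0.791 in CD4 over CD8, and Myb at a reversed 1.01 in CD4 over CD8. Within series 31 the values were 0.818 and 0.791 for Tcf7, 1.44 (reversed, DN over DP) and 1.35 (SP over DP) for Lef1, 0.955 for Bcl11b in SP over DP, 0.722 for Satb1 in DN over DP and 1.01 (reversed, CD4 over CD8) for Myb. The DN over DP ratios of Tcf7, Bcl11b and Satb1 and the SP over DP ratio of Myb stayed below 1 in every alternative run. No paired analysis was possible because the labels do not say what a label series is, so the ratios within series 4 and 31 are given as values and no ratio comes from a test.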
